A study of Mus musculus with 17 samples.

Results

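The interferon-stimulated and nucleic acid sensing genes described here are 39 mouse genes picked by name. They comprise the type I interferon receptor, the factors that carry its signal, the cytoplasmic sensors of foreign RNA and DNA, and the antiviral genes that interferon switches on. A count row was found for 38 of them in each of 2 gene tables, which held 26029 genes for model 1 and 24659 genes for model 2. Zbp1, a sensor of left-handed nucleic acid, had no row in either table and was not analysed here. After the filter on low counts 35 of the 39 genes were tested in each model, and Ifit3, Ifi44 and Mx1 did not pass it.

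RNA-seq libraries, 1 per mouse, came from erythroid blasts of 17 mice that carried the TgSpi1 transgene, which drives constitutive overexpression of the transcription factor SPI1 (PU.1). All blasts were kept in culture with erythropoietin (EPO), so that no library came straight from an animal. Mice are named as in the labels. Model 1 (strain DBA2JxFVB/N) had 4 preleukaemic mice with intact Fanca (TgSpi1FA+/+: preleukemic_445, preleukemic_479, preleukemic_451, preleukemic_138), 3 preleukaemic mice lacking Fanca (TgSpi1FA-/-: preleukemic_77, preleukemic_224, preleukemic_40) and 3 leukaemic mice lacking Fanca (TgSpi1FA-/-: leukemic_26, leukemic_28, leukemic_39). Model 2 (strain DBA2J) had only mice with intact Fanca (TgSpi1FA+/+), 4 preleukaemic (preleukemic_633, preleukemic_663, preleukemic_812, preleukemic_837) and 3 leukaemic (leukemic_601, leukemic_606, leukemic_921), the latter having arisen after blood transfusions. Fanca encodes a core subunit of the Fanconi anaemia DNA repair complex. The models differed in strain, in library protocol and in the way leukaemia arose, and these differences cannot be told apart. For the preleukaemic TgSpi1FA-/- mice a part of the labels reads leukaemic. Their titles and tumour stage read preleukaemic, and they were taken as such.

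Type I interferon binds a receptor made of IFNAR1 and IFNAR2, whose kinases TYK2 and JAK1 phosphorylate STAT proteins, STAT2 among them. STAT2 joins IRF9 in a complex, ISGF3, that binds the interferon-stimulated response element and turns on antiviral genes. Upstream, RIG-I (Ddx58) and MDA5 (Ifih1) sense double-stranded RNA and signal through MAVS, while cGAS senses DNA and signals through STING (Tmem173), and both routes activate IRF3. Many of these genes are also transcribed at a low tonic level without infection, and interferon signalling is a known modifier of blood stem and progenitor cells.

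The response element is shown here because it is the sequence through which many of these genes are read by ISGF3. Promoters of 300 bases, from 250 before to 50 after the start site, were taken from RefSeq on build GRCm38.p6. At least 1 promoter was found for 29 of the 39 genes, and none for Dhx58, Mx1, Mx2, Oas2, Parp14, Parp9, Rtp4, Tmem173, Usp18 and Zbp1. The core motif, GAAA followed by any 2 bases and GAAA, was searched on both strands, with overlapping copies counted. It was in 13 of the 29 genes (44.8%): Ifit1, Ifit3, Isg15, Stat2, Ifih1, Ddx58, Oas1a, Oas3, Rsad2, Bst2, Eif2ak2, Gbp2 and Gbp3. Of all 27025 genes with a promoter 3.99% held it. Among the genes that fell in leukaemic cells (below) the motif was in the window of Stat2 and in none of those of Irf3, Irf9, Ifit2 and Oasl1. Stretches of 6 promoters are printed, each 5′ to 3′ on the strand of the gene, with the motif in capitals (it reads TTTC, 2 bases, TTTC where it lies on the other strand).
Stat2: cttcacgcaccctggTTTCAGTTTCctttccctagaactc
Isg15: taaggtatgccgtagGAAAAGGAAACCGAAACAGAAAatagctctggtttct
Ifit1: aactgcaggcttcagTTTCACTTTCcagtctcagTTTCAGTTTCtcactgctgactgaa
Oas1a: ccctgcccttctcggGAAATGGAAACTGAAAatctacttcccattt
Bst2: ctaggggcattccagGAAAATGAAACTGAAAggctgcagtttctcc
Rsad2: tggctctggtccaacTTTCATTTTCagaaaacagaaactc
The Stat2 stretch is at chr10:128270261-128270300 on the plus strand, and its motif starts 222 bases before the start site. That of Isg15 is at chr4:156200860-156200911 on the minus strand, with the first of 3 overlapping copies 78 bases before the start. The Ifit1 stretch is at chr19:34640770-34640828 (plus), that of Oas1a at chr5:120907515-120907560 (minus), that of Bst2 at chr8:71537572-71537617 (minus) and that of Rsad2 at chr12:26456548-26456587 (minus). A match describes letters in this window and does not show binding. A miss does not show that a gene lacks the element outside the window or in a variant form. The windows of Irf9 began at chr14:55603735 and chr14:55604329, inside the gene, whose annotated start is at 55603571.

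Libraries held 29964576 to 38217654 counts in model 1 and 37726753 to 40514205 in model 2, and values are given as CPM, counts scaled to the TMM-adjusted library size, separately in each table. Fanca was at 28.2 to 83.5 CPM in the preleukaemic TgSpi1FA+/+ mice of model 1 and at no more than 2.30 CPM in the 6 TgSpi1FA-/- mice. Spi1 was at 629.9 CPM in leukaemic mouse leukemic_26, 219.7 in leukemic_28 and 3.88 in leukemic_39, and at 467 to 1061 CPM in the preleukaemic mice of model 1. The erythroid markers summed to 6084 to 9263 CPM in the preleukaemic mice of model 1 and to 2241 to 5164 CPM in the leukaemic mice. The markers of T and NK cells summed to 14.99 to 22.3 CPM in the leukaemic mice and to 0 to 7.78 CPM in the preleukaemic mice, nearly all from Trbc1, with no count of Cd3d, Cd4, Cd8a or Trac. Macrophage, neutrophil and B cell markers summed to at most 4.81, 0.568 and 0.843 CPM in model 1, with no count of C1qa or Ly6g. In model 1 the Zbtb46-led dendritic list reached 69.9 CPM (leukemic_39), the megakaryocyte list 277 CPM (leukemic_28), the mast cell list 93.9 CPM (preleukemic_138) and the stromal list 277 CPM (preleukemic_40). The megakaryocyte list was at 174 to 277 CPM in the leukaemic mice of model 1 and at 45.8 to 60.2 CPM in the preleukaemic TgSpi1FA-/- mice. In model 2 the mast cell list was at 103 to 156 CPM in leukaemic and at 3.73 to 59.2 CPM in preleukaemic mice, and the erythroid markers were at 3414 to 6613 and 6378 to 10727 CPM. The B cell markers of model 2 summed to 6.10 CPM in leukemic_601, nearly all from Ighm (6.03 CPM), and to at most 0.965 CPM in its other mice. Macrophage markers reached 10.3 CPM there (preleukemic_812). The part of these differences in the results below was not tested. Libraries preleukemic_445 and preleukemic_479 were far more alike than any other pair of a group (chi-square per degree of freedom 9.18, against 126 to 411 in other pairs of model 1). Counts of called genes in comparisons that use them are therefore given without each of them or with both summed too. A further deposited count table holds these 2 mice, the other 2 preleukaemic TgSpi1FA+/+ mice of model 1 and its 3 leukaemic mice, and there the pair was no longer alike (chi-square per degree of freedom 390.01).

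**Figure D1:**
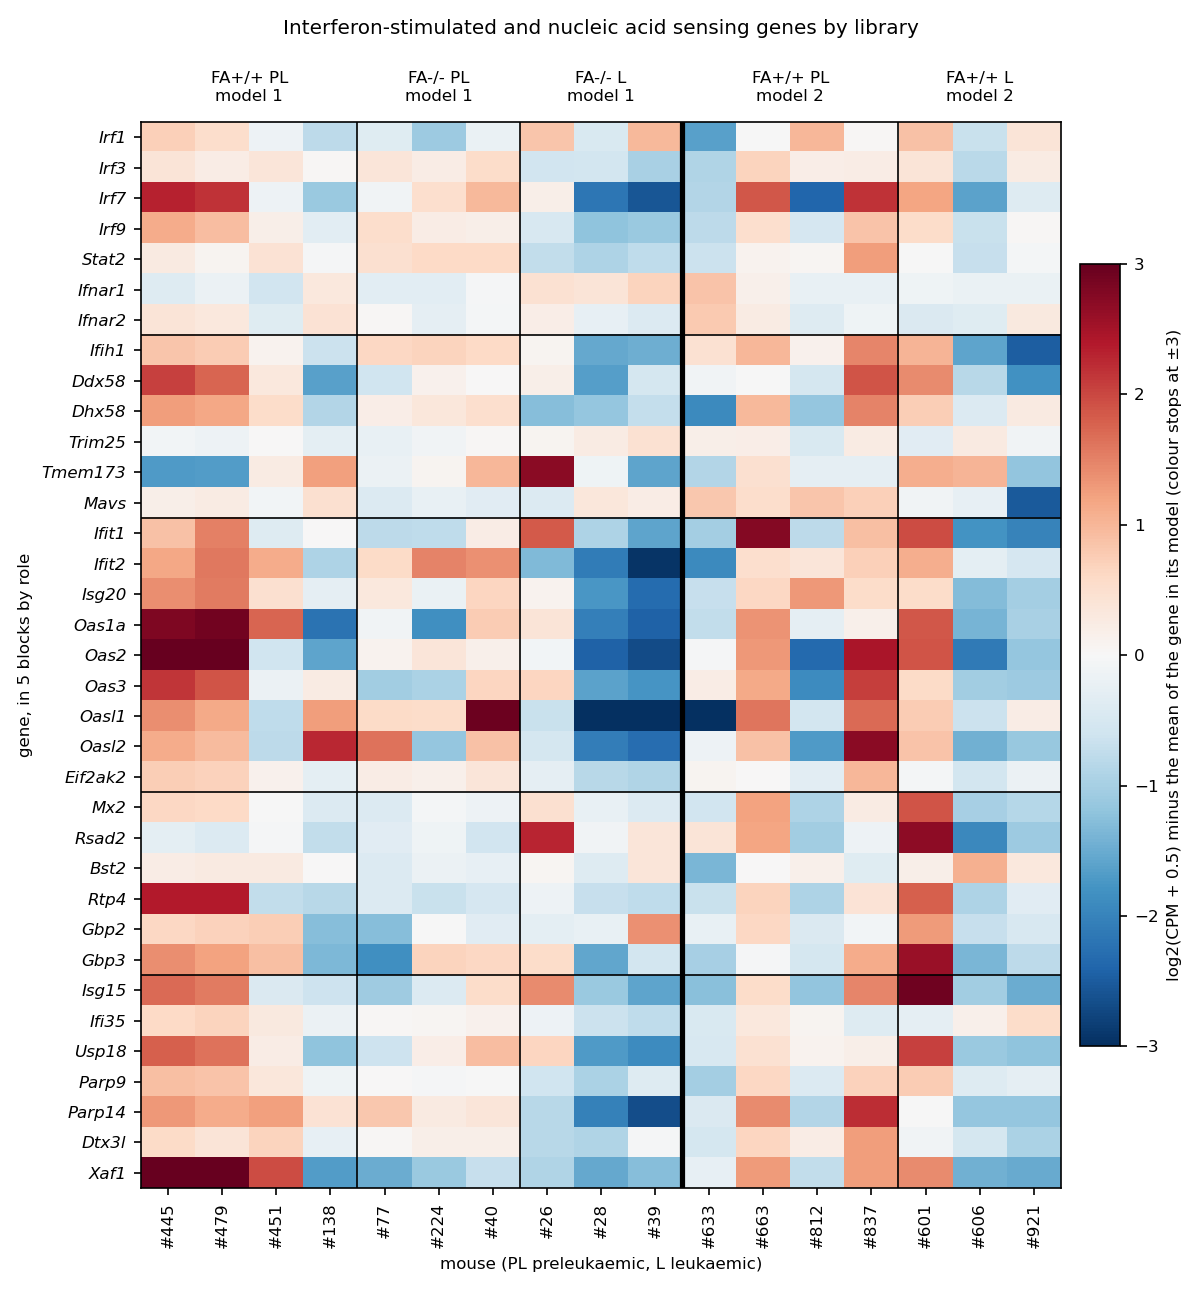
Level of the 35 tested genes (rows, in 5 blocks by role) in the 17 libraries (columns), as log2(CPM + 0.5) minus the mean of the gene in its own model. Red is above and blue below that mean. Mice preleukemic_445 and preleukemic_479 are red in most rows and leukemic_28 and leukemic_39 blue, and in model 2 mice preleukemic_663, preleukemic_837 and leukemic_601 are red.

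Per kilobase of exon, levels over the 17 libraries were highest for Bst2, which encodes the membrane protein tetherin (36.9 CPM per kb), Ifi35 (29.2) and the ubiquitin ligase gene Trim25 (25.9). They were lowest for Ifi44 (0.0147), the influenza restriction factor gene Mx1 (0.0179) and Ifit3 (0.0648). No library held over 31 counts of Ifi44, 16 of Mx1 or 21 of Ifit3, and none of the 3 passed an exact two-sided permutation test (p = 0.0857 or more in the 4 comparisons, where the smallest p allowed was 0.0286 or 0.1). The genes of type I, II and III interferon themselves gave next to no counts. Of 21 interferon genes 2 had a row in model 1, with at most 3 counts in a library, and none had one in model 2.

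Mice of one group differed widely and over many of the genes at once. In model 1, 31 of the 35 genes were above their model mean in preleukemic_445 and in preleukemic_479, but only 11 were in preleukemic_138, which belongs to the same group. The 3 leukaemic mice also stood apart from each other: 18 genes were above the mean in leukemic_26, 3 in leukemic_28 and 7 in leukemic_39. The paper reports a Kit mutation in leukemic_26 and an Nras mutation in leukemic_28 and leukemic_39. It also reports a Jak2 mutation in preleukemic_445 and preleukemic_451. The part of these mutations in the levels was not tested. Mouse leukemic_39 had the lowest value of all 10 mice for 16 genes and the highest for 5. In model 2 the genes above the mean numbered 32 in preleukemic_663, 28 in preleukemic_837 and 26 in leukemic_601, which is a leukaemic mouse. They numbered 4 to 11 in the other mice, preleukemic_633, preleukemic_812, leukemic_606 and leukemic_921, of which the first 2 are preleukaemic. In that model libraries of high and of low level were thus found in both stages.

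The genes that varied most were antiviral effectors. Oas2, whose protein makes an oligoadenylate second messenger on sensing double-stranded RNA, had an SD of log2 CPM of 2.08 over model 1 and of 1.94 over model 2. It was at 40.7 and 31.4 CPM in preleukemic_445 and preleukemic_479, at 1.83 and 0.682 in preleukemic_451 and preleukemic_138, at 3.28, 4.06 and 3.43 in the preleukaemic TgSpi1FA-/- mice, and at 2.82, 0.153 and 0.0507 in the leukaemic ones. Xaf1, a gene of cell death that interferon induces, was at 17.4, 14.6, 5.64 and 0 CPM in the preleukaemic TgSpi1FA+/+ mice, and at no more than 0.485 CPM in the 6 TgSpi1FA-/- mice. Oas1a had 22.1, 23.5, 10.4 and 0.199 CPM in those TgSpi1FA+/+ mice. In model 1 the highest values of the 3 genes were in preleukemic_445 and preleukemic_479, and for Xaf1 and Oas1a preleukemic_451 came next.

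This did not hold in the further table. There Oas2 was at 14.9, 10.1, 8.15 and 0.527 CPM in preleukemic_138, preleukemic_445, preleukemic_451 and preleukemic_479, and at 38.3, 0.89 and 0 CPM in leukemic_26, leukemic_28 and leukemic_39. Xaf1 was at 0.53, 2.99, 3.62 and 0.832 against 1.12, 0.228 and 0.328 CPM, and Oas1a at 1.37, 12.1, 17.3 and 1.89 against 12.2, 1.07 and 0.137 CPM. The highest value was thus in leukemic_26 for Oas2 and in preleukemic_451 for Xaf1 and Oas1a. The counts of genes above the model mean come from the table of model 1 alone.

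The first comparison set leukaemic against preleukaemic TgSpi1FA-/- cells (model 1), to ask how these genes changed as Fanca-deficient blasts became leukaemic. A few of them fell, among which were Stat2, a part of ISGF3, and Irf3, the target of the sensors. By edgeR's quasi-likelihood test (adjusted p under 0.05 over all 13393 genes tested and at least 1.5-fold), 5 of the 35 genes were called and all 5 were lower: Stat2, Irf3, Parp14, Ifit2 and Oasl1. Over all genes tested 13.3% were called, 6.49% lower and 6.82% higher, so that the share of these genes called (14.3%) was near the background in total and above it among lower calls. DESeq2's Wald test called 10 of them, 8 lower and 2 higher, where it called 19.8% of all genes and 7.71% lower. The median log2 fold change of the 35 genes was −0.64, with 23 (65.7%) below 0, and that of all genes was −0.0012, with 50.1% below 0. At an unadjusted p under 0.05 there were 12 lower and 3 higher, where 16.1% of all genes were lower and 16.3% higher (32.4% in all). In 13 of the 35 genes every leukaemic mouse was below every preleukaemic mouse, where 19.3% of all genes were. In 3 the reverse held, where 19.4% of all genes did. In cells of a culture a change in the share of a cell type and a change in RNA per cell cannot be told apart.

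On the counts of model 1 the calls of 2 genes held throughout, but the count of 5 rested on single mice and on the processing. It was 3 without preleukemic_77, 2 without preleukemic_224, 3 without preleukemic_40, 11 without leukemic_26, 2 without leukemic_28 and 3 without leukemic_39. Alternatives that kept all 6 mice gave 2 to 10, a range that includes the fit with preleukemic_445 and preleukemic_479 summed. Stat2 and Irf3 were called without each of these 6 mice, and in every other alternative that was run. All of these used the counts of model 1, since the further table lacks the preleukaemic TgSpi1FA-/- mice. Parp14 was not called without preleukemic_77, preleukemic_224 or leukemic_28, and Ifit2 not without preleukemic_224, preleukemic_40, leukemic_28 or leukemic_39. With a mouse left out, Oasl1 was called only without leukemic_26. For all 3 genes some alternatives that kept all 6 mice lost the call too. Over all alternatives Oasl1 kept its call in 4 and lost it in 11, while Parp14 and Ifit2 each kept it in 10 and lost it in 5. Stat2 and Irf3 were the 2 genes past a fold change tested against 1.5. The median of the 35 genes was −0.32 without preleukemic_40, −0.41 without leukemic_28 and −1.42 without leukemic_26.

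**Figure D2:**
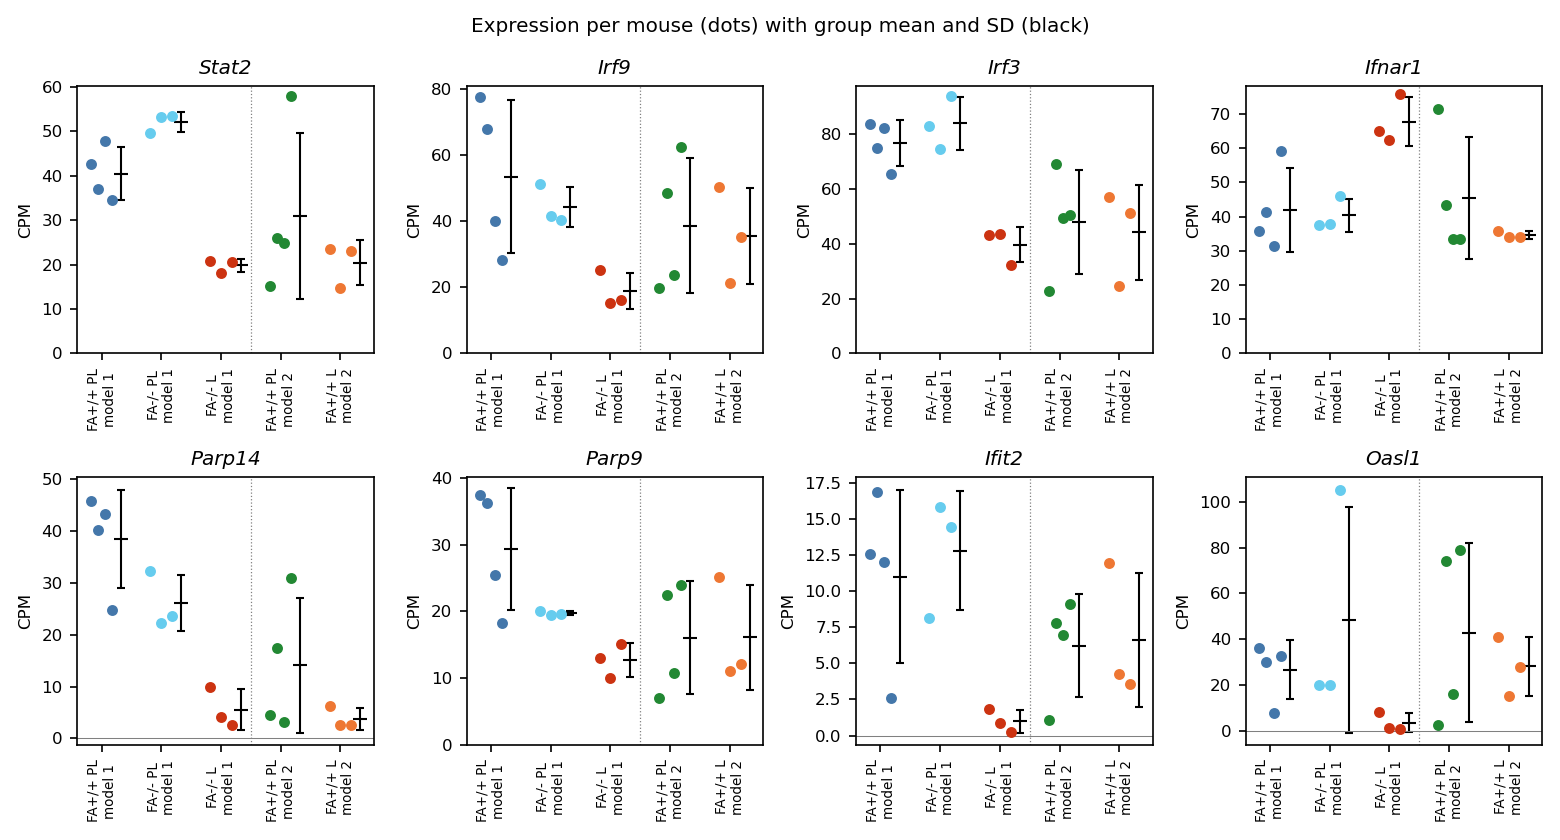
CPM of 8 genes in each mouse (dots) by group, with group mean and SD in black. FA is Fanca, PL preleukaemic and L leukaemic, and the dotted line parts model 1 from model 2. For Stat2 and Irf3 the 3 leukaemic TgSpi1FA-/- mice lie below all preleukaemic mice of model 1, while the groups of model 2 overlap.

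Among receptors and transcription factors, Stat2, the STAT that belongs to ISGF3 alone, was at 49.5, 53.3 and 53.4 CPM in the preleukaemic TgSpi1FA-/- mice and at 20.7, 18.2 and 20.5 CPM in the leukaemic mice. In the table of model 1 the values of a group lay close together and the groups did not overlap. In the further table, which lacks the preleukaemic TgSpi1FA-/- mice, the leukaemic values lay further apart, with leukemic_26 the highest (given below). The log2 fold change of Stat2 in model 1 was −1.39 ± 0.16 (SE, n = 3 against 3, edgeR's adjusted p = 0.00443). Irf3, which sensors activate to induce interferon, was at 83.1, 74.6 and 94.0 CPM in preleukaemic and at 43.2, 43.6 and 32.4 CPM in leukaemic mice. Its log2 fold change was −1.08 ± 0.16 (edgeR's adjusted p = 0.0085). Irf9, the DNA-binding partner in ISGF3, was at 51.1, 41.5 and 40.3 against 25.2, 15.2 and 16.2 CPM. The groups did not overlap, but the change of −1.23 ± 0.37 missed the threshold (edgeR's adjusted p = 0.0571). It passed without leukemic_26 (adjusted p = 0.0432).

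Neither receptor gene was called. Ifnar1 was at 37.6, 37.7 and 46.0 CPM in preleukaemic and at 65.1, 62.3 and 75.7 CPM in leukaemic mice, so that each leukaemic mouse was above each preleukaemic one. The log2 fold change was 0.74 ± 0.23 (edgeR's adjusted p = 0.0611). Ifnar2 was at 36.6, 29.4 and 34.4 against 41.3, 30.1 and 26.7 CPM, and the groups overlapped. Irf7, which amplifies the interferon response, was at 3.12, 4.97 and 7.12 against 3.86, 0.358 and 0.152 CPM, low in 2 of the 3 leukaemic mice and not in leukemic_26. Irf1 had a log2 fold change of 1.19 ± 0.56 (edgeR's adjusted p = 0.177).

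Of the 6 tested sensing genes none was called. Ifih1 (MDA5) was at 64.0, 65.8 and 62.8 CPM in preleukaemic mice and at 43.7, 14.0 and 14.7 CPM in leukaemic mice, without overlap and with a change of −1.41 ± 0.50 (edgeR's adjusted p = 0.0872). Dhx58, which encodes the regulator LGP2, was at 5.65, 6.26 and 7.15 against 1.73, 1.89 and 2.79 CPM (adjusted p = 0.0846). Both RNA helicase genes were thus lower in each leukaemic mouse without passing the test. Ddx58 (RIG-I) overlapped between the groups, at 5.29, 9.06 and 8.31 against 9.43, 2.30 and 5.63 CPM. Mavs, the adaptor of both helicases, had a log2 fold change of 0.41 ± 0.21 and Trim25 one of 0.35 ± 0.13. Tmem173 (STING) was at 1.28, 1.64 and 3.49 CPM in preleukaemic mice and at 12.7, 1.35 and 0.178 CPM in leukaemic mice, which spans leukemic_26, the highest of the 10 mice of model 1, and leukemic_39, close to the lowest.

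Of 9 tested effectors that act on RNA 8 had a fold change below 0, with a median of −1.26, and 2 were called. Ifit2, whose protein binds RNA and restrains viral translation, was at 8.11, 15.8 and 14.5 CPM in preleukaemic and at 1.84, 0.869 and 0.254 CPM in leukaemic mice. The change was −3.69 ± 0.84 (edgeR's adjusted p = 0.0257). Oasl1 was at 20.1, 19.8 and 105 against 8.28, 1.25 and 0.761 CPM, with a change of −3.82 ± 1.11 (adjusted p = 0.049), and its preleukaemic mean rests on preleukemic_40. Eif2ak2, the gene of the kinase PKR, was at 72.7, 70.1 and 81.0 against 51.8, 34.9 and 33.5 CPM and missed the threshold at −0.90 ± 0.28 (adjusted p = 0.0632). The exception by sign was Ifit1, which was at 4.80 CPM in leukemic_26, the highest of model 1, at 0.281 in leukemic_28 and at 0 in leukemic_39.

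Of 6 tested effectors at membranes and GTPases 5 had a fold change above 0, with a median of 0.67, and none was called. Rsad2, the gene of viperin, was at 0.164, 0.263 and 0.0647 CPM in preleukaemic mice and at 3.56, 0.281 and 0.583 CPM in leukaemic mice. Its change of 3.13 ± 1.24 did not pass the test (edgeR's adjusted p = 0.116) and rests on leukemic_26. Bst2 was at 21.6, 25.6 and 24.3 against 30.3, 22.1 and 37.1 CPM, and the groups overlapped. Gbp2, an interferon-induced GTPase, was at 0.0657, 0.848 and 0.582 against 0.603, 0.664 and 3.02 CPM.

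In the block of ISG15, ubiquitin and ADP-ribose conjugation 6 of 7 genes were below 0, with a median of −0.64. The block also held Xaf1 (−0.49) and Ifi35 (−0.57), which its name does not describe. Parp14, a mono-ADP-ribosyltransferase, was at 32.3, 22.3 and 23.7 CPM in preleukaemic and at 9.97, 4.09 and 2.49 CPM in leukaemic mice. The change was −2.24 ± 0.48 (edgeR's adjusted p = 0.0216). Parp9 and Dtx3l, which encode an ADP-ribosylating pair of proteins and share a promoter region, had changes of −0.64 ± 0.29 and −0.68 ± 0.30 (edgeR's adjusted p = 0.165 and 0.149). Isg15, the ubiquitin-like modifier, was at 2.20, 3.74 and 7.80 against 14.4, 2.10 and 1.37 CPM, highest and lowest in leukaemic mice. Usp18, which removes ISG15 and damps the receptor, was at 1.21, 2.51 and 4.50 against 3.59, 0.307 and 0.203 CPM.

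The remaining tested genes gave no call in this comparison. Isg20, Ifi35, Oas3, Oasl2 and Gbp3 had fold changes below 0, and Mx2, an antiviral GTPase at no more than 0.53 CPM in model 1, and Rtp4 had fold changes above 0. Ifi35 was lower in every leukaemic mouse, at 40, 41 and 42.9 against 35.2, 25 and 23 CPM (−0.57 ± 0.24, edgeR's adjusted p = 0.14).

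**Figure D3:**
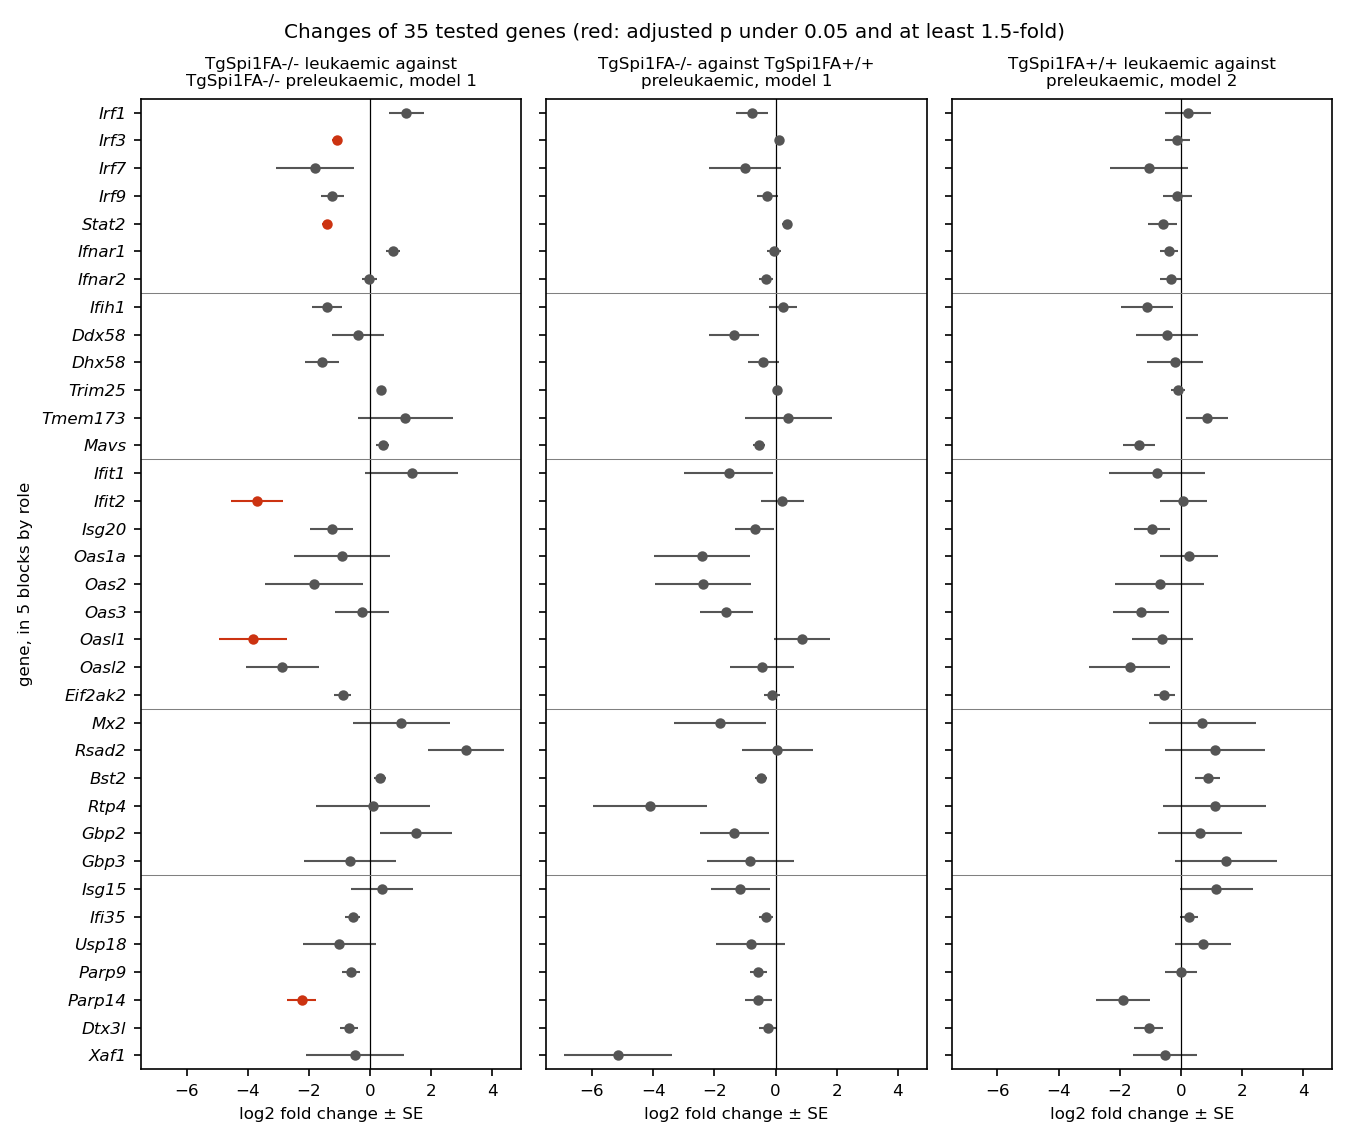
Log2 fold change with its SE for the 35 tested genes in 3 comparisons, in 5 blocks by role, with called genes in red. In the left panel 5 genes are called, all lower, while most of the membrane effectors and GTPases lie to the right of 0. In the middle and right panels no gene is called.

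The comparison of preleukaemic TgSpi1FA-/- with preleukaemic TgSpi1FA+/+ cells addressed the loss of Fanca before leukaemia. Mice of model 1 came from a cross of strains, and no label gives the background of each mouse. The part of strain background in this comparison was not tested. No gene of the 35 was called by edgeR's quasi-likelihood test, against 0.00747% of all genes. At an unadjusted p under 0.05 there were 4 (3 lower and 1 higher), where 8.65% of all genes were (5.13% lower and 3.52% higher). DESeq2's Wald test called Xaf1 alone, lower, where it called 1.87% of all genes and 1.62% lower. By sign 27 of the 35 were below 0 (49.3% of all genes), with a median of −0.54. Without preleukemic_445 or preleukemic_479, the pair that had the highest levels, or with both summed, no gene was called either.

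Mavs was at 80.1, 83.7, 66.5 and 98.7 CPM in TgSpi1FA+/+ mice and at 53.1, 60.3 and 56.0 CPM in TgSpi1FA-/- mice, a log2 fold change of −0.54 ± 0.20 (edgeR's adjusted p = 0.535). Bst2 was at 33.5, 34.8, 35 and 29.3 against 21.6, 25.6 and 24.3 CPM (−0.48 ± 0.19, adjusted p = 0.555). Stat2 was at 42.6, 37.0, 47.9 and 34.5 against 49.5, 53.3 and 53.4 CPM (0.36 ± 0.15, adjusted p = 0.557). In none of the 3 did the groups overlap: Mavs and Bst2 were lower and Stat2 higher in each mouse lacking Fanca, as were 4.27% and 4.26% of all genes. Rtp4, an interferon-induced chaperone gene, was at 4.09 and 4.16 CPM in preleukemic_445 and preleukemic_479 and at no more than 0.301 CPM in the other 8 mice of model 1. In the further table it was at 0.0796 and 0.124 CPM in this pair and at no more than 0.316 CPM in any of the 7 mice, so that the high values were not found there.

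Leukaemic TgSpi1FA-/- cells were then set against preleukaemic TgSpi1FA+/+ cells, a comparison in which stage and genotype both differ and which shares its leukaemic mice with the first. Of the 35 genes 6 were called and all were lower: Stat2, Irf3, Parp14, Parp9, Ifit2 and Irf9. Over all genes 7.01% were called, 3.46% lower and 3.55% higher. DESeq2's Wald test called 16, 14 lower and 2 higher, where it called 14.8% of all genes and 6.15% lower. The median was −1.16 (−1.91 without leukemic_26, and −0.62 in the further table), with 29 of 35 below 0 (49.2% of all genes). At an unadjusted p under 0.05 there were 16 lower and 3 higher, where 13.8% of all genes were lower and 13.4% higher (27.2% in all). In 6 genes all leukaemic mice were below all others and in 2 above (12.9% and 12.8% of all genes). Irf9 was at 77.7, 67.8, 40 and 28.3 CPM in TgSpi1FA+/+ mice, all above the leukaemic mice, with a change of −1.50 ± 0.36 (edgeR's adjusted p = 0.0399). Parp9 was at 37.3, 36.3, 25.4 and 18.2 CPM against 13.0, 10.0 and 15.1 CPM, with a change of −1.21 ± 0.28 (edgeR's adjusted p = 0.0368). For Stat2 the change was −1.03 ± 0.15 and for Irf3 −0.95 ± 0.16.

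These 6 calls depended on the libraries and on the table. The count was 0 without preleukemic_445, 1 without preleukemic_479, 3 without preleukemic_451, 12 without preleukemic_138, 14 without leukemic_26, 0 without leukemic_28 and 2 without leukemic_39. With preleukemic_445 and preleukemic_479 summed to 1 library 1 gene, Stat2, was called. In the further table of 7 mice no gene of the 35 was called, against 1.59% of all genes, with 8 at an unadjusted p under 0.05 (7 lower, Rsad2 higher). The median there was −0.62, with 28 of 35 below 0. All of the 6 genes had a fold change below 0 in it, from −0.40 for Parp9 to −2.10 for Ifit2. For Irf9, Parp14, Parp9 and Ifit2 the groups overlapped in it, unlike in model 1. The highest leukaemic values were 63.7, 21.9, 13.5 and 1.97 CPM, and the lowest preleukaemic values 60.9, 21.5, 9.97 and 0.698 CPM. There Irf3 was at 65.0, 80.4, 84.6 and 57.6 CPM in preleukemic_138, preleukemic_445, preleukemic_451 and preleukemic_479 and at 48.0, 40.6 and 33 CPM in leukemic_26, leukemic_28 and leukemic_39, again without overlap (edgeR's adjusted p = 0.13). Stat2 was at 59.7, 59.7, 77.2 and 39.4 against 49.4, 26.7 and 22.7 CPM, and leukemic_26 lay within the range of the other group.

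In model 2 leukaemic TgSpi1FA+/+ cells were compared with preleukaemic TgSpi1FA+/+ cells. No gene of the 35 was called by edgeR's quasi-likelihood test, nor by DESeq2's Wald test, where edgeR called 0% and DESeq2 3.45% (2.34% lower) of all genes. At an unadjusted p under 0.05 there was 1, Mavs, lower, where 19.9% of all genes were (11.4% lower and 8.59% higher). The median was −0.20, with 21 of 35 below 0 (51.6% of all genes), but it ranged from −1.71 without leukemic_601 to −0.06 without leukemic_606 or preleukemic_837. Mavs was at 78.2, 65.2, 80.4 and 73.5 CPM in preleukaemic mice and at 41.2, 37.7 and 7.35 CPM in leukaemic mice, a change of −1.37 ± 0.52 (edgeR's adjusted p = 0.211). The groups did not overlap, which 10.4% of all genes shared in this direction, and leukemic_921 was far below the others. Bst2 was at 13.3, 35.5, 38.8 and 27.2 against 39.9, 74.0 and 43.8 CPM, higher in each leukaemic mouse, as were 9.65% of all genes.

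Stat2 was at 15.1, 26, 24.8 and 57.9 CPM in preleukaemic mice of model 2 and at 23.6, 14.6 and 23.1 CPM in leukaemic mice. Irf3 was at 22.9, 69.0, 49.6 and 50.6 against 56.9, 24.6 and 51.4 CPM. For both genes the groups overlapped, with changes of −0.60 ± 0.47 and −0.12 ± 0.42. Isg15 was at 3.76, 14.4, 3.95 and 27.5 against 75.5, 4.39 and 3.12 CPM, so that the highest value of the 17 mice was in leukaemic mouse leukemic_601. Ifit1 was at 0.832, 17.7, 1.07 and 4.53 against 10.1, 0.279 and 0.170 CPM, and Irf7 at 2.27, 18, 0.480 and 22.1 against 11, 1.17 and 3.38 CPM. All 3 genes were high in preleukemic_663, preleukemic_837 and leukemic_601 and low in the remaining mice.

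The difference between the leukaemic change of model 1 and that of model 2 was tested in a fit of all 17 libraries over 14597 shared genes. No gene of the 35 was called by edgeR's quasi-likelihood test, against 4.61% of all genes (2.76% higher and 1.85% lower). At an unadjusted p under 0.05 there were 2 higher and 2 lower, where 14.8% of all genes were higher and 11% lower (25.8% in all), and DESeq2's Wald test called 3 (Ifit2, Ifnar1 and Mavs), where it called 13.5%. The difference (model 1 minus model 2) was below 0 in 21 of the 35 genes (48.1% of all genes). It was −3.76 for Ifit2 (edgeR's adjusted p = 0.0643), 1.77 ± 0.57 for Mavs (0.0742) and 1.12 ± 0.37 for Ifnar1 (0.0819). It was −0.80 ± 0.49 for Stat2 and −0.96 ± 0.46 for Irf3, so that their fall in model 1 was not shown to differ from the change in model 2. Without leukemic_26 Ifit2 was called, and without preleukemic_837 Stat2 was called.

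The other genes of the pathway were taken from lists of 166 genes, of which 108 were tested in model 1. In leukaemic against preleukaemic TgSpi1FA-/- cells 21 of them (19.4%) were called, 13 lower (12.0%) and 8 higher. Of all genes 13.3% were called, 6.49% lower and 6.82% higher. The median was −0.29. In leukaemic TgSpi1FA-/- against preleukaemic TgSpi1FA+/+ cells 14 (13.0%) were called, 12 lower (11.1%) and 2 higher, beside 7.01% of all genes called and 3.46% called lower, and 80 of the 108 were below 0. In preleukaemic TgSpi1FA-/- against TgSpi1FA+/+ cells and in model 2 no gene was called by edgeR. There 10 of 108 and 21 of 106 were at an unadjusted p under 0.05, near the shares of all genes (8.65% and 19.9%), and DESeq2 called 5 and 2, where it called 1.87% and 3.45% of all genes. Like those above these counts rested on single mice. The 21 became 6 without preleukemic_77, 0 without preleukemic_224, 4 without preleukemic_40 and 25 without leukemic_26. They became 0 without leukemic_28, 6 without leukemic_39, and 7 with preleukemic_445 and preleukemic_479 summed. The 14 became 1 without preleukemic_445, preleukemic_479, preleukemic_451 or leukemic_28, 2 without leukemic_39, 21 without preleukemic_138 and 22 without leukemic_26, and 1 with the pair summed.

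Both kinases of the type I receptor were among the genes called lower. Tyk2 was at 121, 109 and 122 CPM in preleukaemic TgSpi1FA-/- mice and at 47.1, 26.9 and 13.2 CPM in leukaemic mice, a log2 fold change of −2.02 ± 0.39 (edgeR's adjusted p = 0.0165). Jak1 was at 279, 165 and 264 against 119, 84.5 and 76.3 CPM (−1.34 ± 0.35, adjusted p = 0.0372). Tyk2 lost its call without preleukemic_224 or leukemic_28, and Jak1 without each of preleukemic_77, preleukemic_224, preleukemic_40, leukemic_28 and leukemic_39. In model 2 Tyk2 was at 41.1, 73.9, 121 and 80.0 CPM in preleukaemic and at 44.6, 37.8 and 39.8 CPM in leukaemic mice (−0.95 ± 0.34, adjusted p = 0.194). Ifngr2, a subunit of the type II interferon receptor, was called higher in model 1, at 20.2, 22.8 and 32.2 against 77.9, 53.3 and 57.3 CPM (1.33 ± 0.29, adjusted p = 0.023).

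Among sensing genes Mb21d1, which encodes cGAS, was lower in leukaemic TgSpi1FA-/- mice, at 59.0, 54.3 and 51.9 against 44.5, 29.4 and 28.8 CPM (−0.69 ± 0.19, edgeR's adjusted p = 0.0407). Of antigen processing genes Tap1 was at 17.9, 29.7 and 27.1 against 13.3, 5.32 and 7.64 CPM (−1.51 ± 0.40, adjusted p = 0.0375). Each leukaemic mouse was below each preleukaemic mouse for both genes. Among others called lower in this comparison were Irgm1, Irak4, Dnase2a, Pml, Ifi47, Irf2bp2, Nmi and Sp100.

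Ifitm1, Ifitm2 and Ifitm3, whose proteins hold back virus entry, were called higher with all 6 mice. None of the 3 was called without preleukemic_224 (edgeR's adjusted p = 0.13, 0.102 and 0.0772), preleukemic_40 or leukemic_28. Ifitm1 and Ifitm3 also lost the call without preleukemic_77, and Ifitm1 and Ifitm2 without leukemic_39. Ifitm1 and Ifitm2 lost it with preleukemic_445 and preleukemic_479 summed. Ifitm2 was at 31.9, 17.5 and 19.2 CPM in preleukaemic TgSpi1FA-/- mice and at 48.4, 39.7 and 55.7 CPM in leukaemic mice (1.07 ± 0.27, edgeR's adjusted p = 0.0329). Against preleukaemic TgSpi1FA+/+ mice, at 9.45, 10.1, 9.71 and 13.2 CPM, its change was 2.18 ± 0.25 (adjusted p = 0.0061, and 0.12 in the further table), and the groups did not overlap. Ifitm1 was at no more than 1 count in the preleukaemic TgSpi1FA-/- mice and at 3.89, 6.13 and 29.5 CPM in the leukaemic ones. It was at least 139.6-fold higher against a floor of 3 counts per library, or at least 53.1-fold without leukemic_39. Ifitm3, which had at most 2 counts in a preleukaemic TgSpi1FA-/- library, was at 3.67, 1.07 and 0.228 CPM, at least 17.6-fold higher, or 6.89-fold without leukemic_26. Nlrc5, at 0.137, 1.20 and 2.92 CPM, had no count in the preleukaemic TgSpi1FA-/- mice, and was at least 15.02-fold higher (7.09-fold without leukemic_39). The preleukaemic TgSpi1FA+/+ mice of model 1 held counts of these genes, with means of 1.73 CPM for Nlrc5, 1.19 for Ifitm1 and 0.574 for Ifitm3. Leukaemic means were 1.42, 13.2 and 1.66 CPM, so that for Nlrc5 the leukaemic mean was not above that of the TgSpi1FA+/+ mice. Ogfr and Samhd1 were called higher too.

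**Figure D4:**
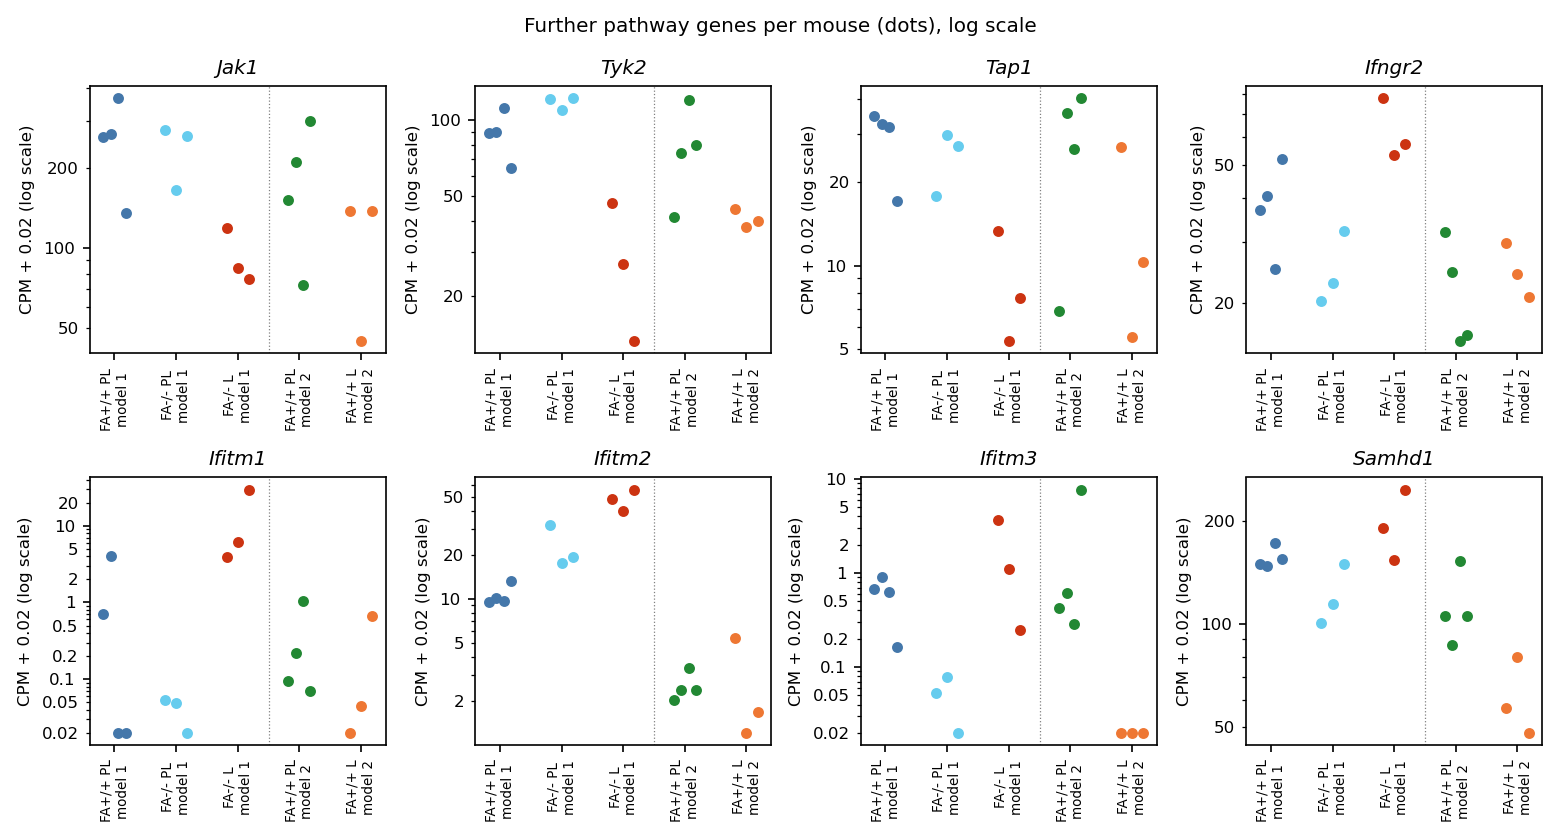
CPM plus 0.02 on a log scale for 8 further pathway genes in each mouse (dots), by group as in the plot of CPM by group. Jak1 and Tyk2 are lowest in the leukaemic TgSpi1FA-/- mice within model 1. Ifitm3 is present in these mice and at 0 in all 3 leukaemic mice of model 2.

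Of 113 pathway genes in the fit of both models 4 had leukaemic changes that differed (4.61% of all genes were called). For Ifitm3 the direction was opposite: in model 2 it was at 0.403, 0.6, 0.267 and 7.69 CPM in preleukaemic mice and had no count in the 3 leukaemic mice, at least 28.2-fold lower, or 5.33-fold without preleukemic_837. Samhd1, a gene that depletes nucleotides and restricts retroviruses, was at 101, 114 and 150 against 190, 154 and 246 CPM in model 1 and at 106, 86.8, 153 and 105 against 56.7, 79.8 and 48.0 CPM in model 2. The difference was 1.56 ± 0.33 (edgeR's adjusted p = 0.0306). Tank, a regulator of sensor signalling, was at 89.7, 81.1 and 89.3 against 65.0, 68.0 and 52.4 CPM in model 1 and at 66.8, 69.7, 76.4 and 82.4 against 96.0, 86.4 and 98.8 CPM in model 2, a difference of −0.84 ± 0.19 (adjusted p = 0.0326). Ifi203 rested on preleukemic_40 (11.2 CPM) and leukemic_601 (13.6 CPM), with at most 1.06 CPM in the other mice. No call was left without any 1 of preleukemic_77, preleukemic_224, preleukemic_40, leukemic_28, leukemic_39, leukemic_601 or leukemic_921.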

How the data were processed

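The authors deposited gene counts, and the values used here are those whole-number counts per gene. Per the submitters' processing notes bcl2fastq 2.17.1.14, STAR 2.5.3a and HTSeq 0.6.1p1 were used with build mm10. Libraries were stranded and polyA-selected. Genes were named by symbol, and Tmem173 (Sting1 in the table of model 1) was matched by Ensembl ID.

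Counts were tested with edgeR 4.0.16 (R 4.3.3): filterByExpr by group, TMM, glmQLFit and glmQLFTest, with Benjamini-Hochberg adjustment over all genes tested. A call needed both an adjusted p below 0.05 and a change of 1.5-fold or more. All 3 groups of model 1 shared a fit, those of model 2 another, and the difference between models was fitted over all 17 libraries. The script was tested on simulated data. Alternatives were DESeq2 1.42.0, its size factors, 2 other filters, robust estimation, other call rules, only the compared groups, each mouse left out, preleukemic_445 and preleukemic_479 summed, and the further table of 7 mice (35497594 to 171572736 counts). Figures were drawn with matplotlib 3.10.9.

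The genes described one by one were those called, those whose groups did not overlap at an unadjusted p under 0.05 (at most 8 a comparison), and those with the highest, lowest or most variable levels. Other genes were named after their values were seen. The 39 genes, the lists and the tests were chosen with earlier results of these data known. The labels give each library its own mouse, and p-values measure the spread between mice only where that holds. It is uncertain for preleukemic_445 and preleukemic_479, which were far more alike than other pairs (chi-square per degree of freedom 9.18). In the further table the pair was no longer alike. Both were in the fit shared by the groups of their table. The p-values of that fit thus take them as separate mice, except where the pair was summed or a member left out. Some results of the wider gene lists are not reported here.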

Additional observations from a re-analysis of the deposited data

Results flagged for a closer look

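In 4 of 70 groups of 4 mice tested (5.71%), 1 mouse stood apart from its group by the gap to its nearest neighbour over the range of the group above Dixon's critical value. Chance gives about 1 in 20. Ifnar2 was at 27.6 CPM in preleukemic_451 and at 44.6 to 48.1 CPM in the other mice of the group (ratio 0.830). Gbp2 was at 0.0568 CPM in preleukemic_138 and at 1.59 to 1.76 CPM in the others (ratio 0.900). In model 2 Ddx58 was at 16.6 CPM in preleukemic_837 and at 2.72 to 4.10 CPM in the others (ratio 0.900). Trim25 was at 90.1 CPM in preleukemic_812 and at 138.9 to 146.3 CPM in the others (ratio 0.868).

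For 4 genes of the wider pathway the leukaemic change of model 1 differed from that of model 2 by edgeR's quasi-likelihood test of the difference. The fitted log2 difference was 15.05 for Ifitm3, 1.56 for Samhd1, −0.84 for Tank and −10.25 for Ifi203. Those of Ifitm3 and Ifi203 depend on groups at or near 0 counts and are no measure of size. Models, strains and library protocols cannot be told apart.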

How the results depend on the processing

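Fold changes were recomputed for the genes called and for some of those not overlapping, among them Irf9, Ifnar1 and Eif2ak2, and none of these changed sign. Leaving out each mouse in turn gave 2 to 11 called genes for leukaemic against preleukaemic TgSpi1FA-/- cells, 0 to 14 for leukaemic TgSpi1FA-/- against preleukaemic TgSpi1FA+/+ cells, 0 to 1 for the difference between models, and 0 for each of the other 2 comparisons. DESeq2's Wald test called 10, 16 and 3 genes in those first 3 comparisons, 1 in preleukaemic TgSpi1FA-/- against TgSpi1FA+/+ cells, and 0 in model 2. A fold change tested against 1.5 left 2 genes in the first and 1 in the second comparison. In the second, only the compared groups gave 3, preleukemic_445 and preleukemic_479 summed 1, and 0 were called in the further table. The median log2 difference between models was −0.36 with all 17 mice, −1.08 without leukemic_26 and 0.60 without leukemic_601. Summing the pair was chosen after seeing the data for the first comparison and for the difference between models. The cause of these shifts was not tested. No paired analysis was possible because replicate numbers are mouse numbers and none occurs in 2 groups. Ifi44, Mx1 and Ifit3 rest on at most 31 counts in a library, which limits what could be detected for them.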
